A study of Mus musculus with 4 samples.

Results

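Genomic imprinting marks some genes in the germline so that 1 parental copy is expressed and the other is silent. The genes described here are 40 mouse genes known to be imprinted, taken by name from 17 chromosomal clusters. Each was read from probe sets that the platform's annotation pairs with its symbol alone, by the probe set with the highest mean log2 signal over the 4 arrays. In all, 37 of the 40 had such a probe set, among 18193 genes measured, and 31 of the 37 were detected on at least 1 array. Dio3 and Zrsr1 were named by no probe set of the annotation used here, and H19 only by a probe set that also names a second gene.

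The 4 samples were 1 array each of undifferentiated mouse embryonic stem (ES) cells, sorted Sox1 neural stem cells, cerebellar granule cells of postnatal day 6, and cells sorted for a GFP reporter of HB9, a motor neuron transcription factor. One protocol text, given for all samples, describes HB9-ES cells grown on mitomycin C-treated embryonic fibroblasts with leukemia inhibitory factor (1000 U/ml); whether the ES sample is that line is not said. For differentiation it gives Sonic hedgehog, retinoic acid (0.1 uM) and purmorphamine (0.2 uM), a hedgehog pathway agonist, between day 5 and day 9, yet a sort on day 8, so the exposure is uncertain. The origin of the Sox1 cells, any purification of the granule cells, the strain, the sex and any pooling are not given in the sources used here.

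Imprinted genes sit in clusters, each governed by an imprinting control region whose DNA is methylated on 1 parental copy. Many paternally expressed genes favour growth of the embryo and placenta, and many maternally expressed ones restrain it. Several members are also strongly expressed in the developing brain, where some lose imprinting or switch the active copy. An expression array sums the transcripts of both copies, so these signals give no information on which copy was active, and fewer cells of a type cannot be told apart from less RNA per cell.

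Zinc finger protein ZFP57 keeps the methylation of imprinting control regions by binding the methylated motif TGCCGC. This motif was searched on both strands in the 250 bases before each transcript start, taken from RefSeq on GRCm38.p6, for the 35 listed genes in that table. It was found for 6 of the 35 genes (17.1%), namely Calcr, Meg3, Mest, Nap1l5, Plagl1 and Zim1, against 9.84% of all 27025 genes in the table. The windows of the 4 detected members are shown, because each of these genes passed the 4-fold rule between some of the arrays. Each is written 5′ to 3′ on the gene's strand, with the motif in capitals on either strand (GCGGCA where it lies on the other).
Mest, chr6:30737800-30738049, plus strand: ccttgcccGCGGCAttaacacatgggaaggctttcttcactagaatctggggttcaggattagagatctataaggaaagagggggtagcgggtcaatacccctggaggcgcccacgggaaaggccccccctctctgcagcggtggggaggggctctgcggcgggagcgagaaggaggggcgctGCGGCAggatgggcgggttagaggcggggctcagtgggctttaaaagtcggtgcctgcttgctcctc
Plagl1, chr10:13090582-13090831, plus strand: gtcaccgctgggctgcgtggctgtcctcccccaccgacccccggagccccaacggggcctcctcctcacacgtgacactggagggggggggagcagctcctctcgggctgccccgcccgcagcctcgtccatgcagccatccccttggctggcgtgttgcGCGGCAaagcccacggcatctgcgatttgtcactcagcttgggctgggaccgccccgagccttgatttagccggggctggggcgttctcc
Meg3, chr12:109540746-109540995, plus strand: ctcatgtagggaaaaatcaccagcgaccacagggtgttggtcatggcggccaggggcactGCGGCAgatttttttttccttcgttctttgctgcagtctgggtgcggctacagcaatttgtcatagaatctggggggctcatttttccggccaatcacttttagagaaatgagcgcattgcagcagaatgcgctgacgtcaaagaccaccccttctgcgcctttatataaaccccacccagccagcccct
Nap1l5, chr6:58907127-58907376, minus strand: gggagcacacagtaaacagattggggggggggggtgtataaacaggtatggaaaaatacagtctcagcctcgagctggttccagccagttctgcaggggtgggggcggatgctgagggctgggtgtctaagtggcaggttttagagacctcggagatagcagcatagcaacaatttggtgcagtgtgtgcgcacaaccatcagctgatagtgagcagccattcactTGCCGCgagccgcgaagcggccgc
The Mest window held 2 matches and the other 3 held 1 each. The motif GGGGCCCC, a sequence bound by the zinc finger protein PLAGL1, was found for 3 of the 35 genes (Peg3, Ppp1r9a and Rasgrf1, 8.57%), against 1.03% of all genes. By window these shares were 5.56% and 0.889%. The median number of CpG dinucleotides was 10 over the members' 54 windows and 6 over all 32851. A match describes letters only.

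The arrays were scaled to a common trimmed mean of 500.0, and their median signals were 61.9 to 90.7. On the HB9-GFP+-labelled array 0 of 7 motor neuron markers were detected and 10 of 10 pluripotency markers were, as on the ES array, so its values run against its label and it is named by the label throughout. Feeder fibroblast markers were also high there, with 11 of 12 detected and a summed signal of 24855.4, against 3 and 1754.2 (ES), 3 and 1551.9 (Sox1), and 7 and 7952.8 (granule). Neural progenitor markers were detected 9 of 9 on the Sox1 array and granule neuron markers 9 of 10 on the granule array, on which 7 of 7 astrocyte markers were detected too. Some were also detected elsewhere. Neural progenitor markers numbered 6 (ES), 5 (labelled HB9-GFP+) and 7 (granule), granule neuron markers 4 (ES) and 2 (labelled HB9-GFP+), and astrocyte markers 4 (ES), 4 (labelled HB9-GFP+) and 3 (Sox1). The Sox1 array also detected 7 of 10 pluripotency markers, with a summed signal of 13735.1 against 106462.1 on the ES array, and 6 of 10 granule neuron markers. The 3′ to 5′ ratios of the actin and Gapdh controls, which rise with RNA degradation, were highest on the Sox1 array, at 5.08 and 3.68, against 2.29 to 4.55 and 1.37 to 2.70 on the other arrays. The part of these differences in the results was not tested.

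Signals are linear intensities. A gene counted as detected from a signal of 157.5, 1 log2 unit above a low level of 78.8 (the arrays' mean median on the log2 scale). Signals under the low level were raised to it before differences were taken. A call of higher or lower needed a 4-fold difference and detection on the array with more signal. A fold against the low level is written "at least", and no fold is given against a signal between both levels. With 1 array per kind of cell there is no replicate error and no test, and every difference is one between these arrays. As technical yardsticks, 18 hybridisation control probe sets differed between arrays with an SD of 0.06 to 0.11 log2 units, and the probe sets of one imprinted gene with a pooled SD of 0.40 to 0.70.

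Imprinted genes were brightest most often on the Sox1 neural stem cell array. It detected 28 of the 37 (75.7%, against 51.5% of all genes), while the other arrays detected 22 or 23. Of the 31 detected members, 17 had their highest signal on the Sox1 array (54.8%, against 20.6% of all detected genes), 8 on the granule array (25.8%, against 28.4%), 4 on the HB9-GFP+-labelled array (12.9%, against 27.8%) and 2 on the ES array (6.45%, against 23.2%). Against each of the other 3 arrays, 5 members were set apart as at least 4-fold higher on the Sox1 array (13.5%, background 0.616%), namely Peg12, Mest, Grb10, Magel2 and Mkrn3. On the granule array 2 were set apart as higher, Usp29 and Nap1l5 (5.41%, background 2.72%), and 1 as lower, the transporter gene Slc38a4 (2.70%, background 0.868%). No other member was set apart, against backgrounds of 0.247% and 0.412% higher on the ES and HB9-GFP+-labelled arrays, and of 0.203%, 0.137% and 0.115% lower on the ES, HB9-GFP+-labelled and Sox1 arrays.

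**Figure D1:**
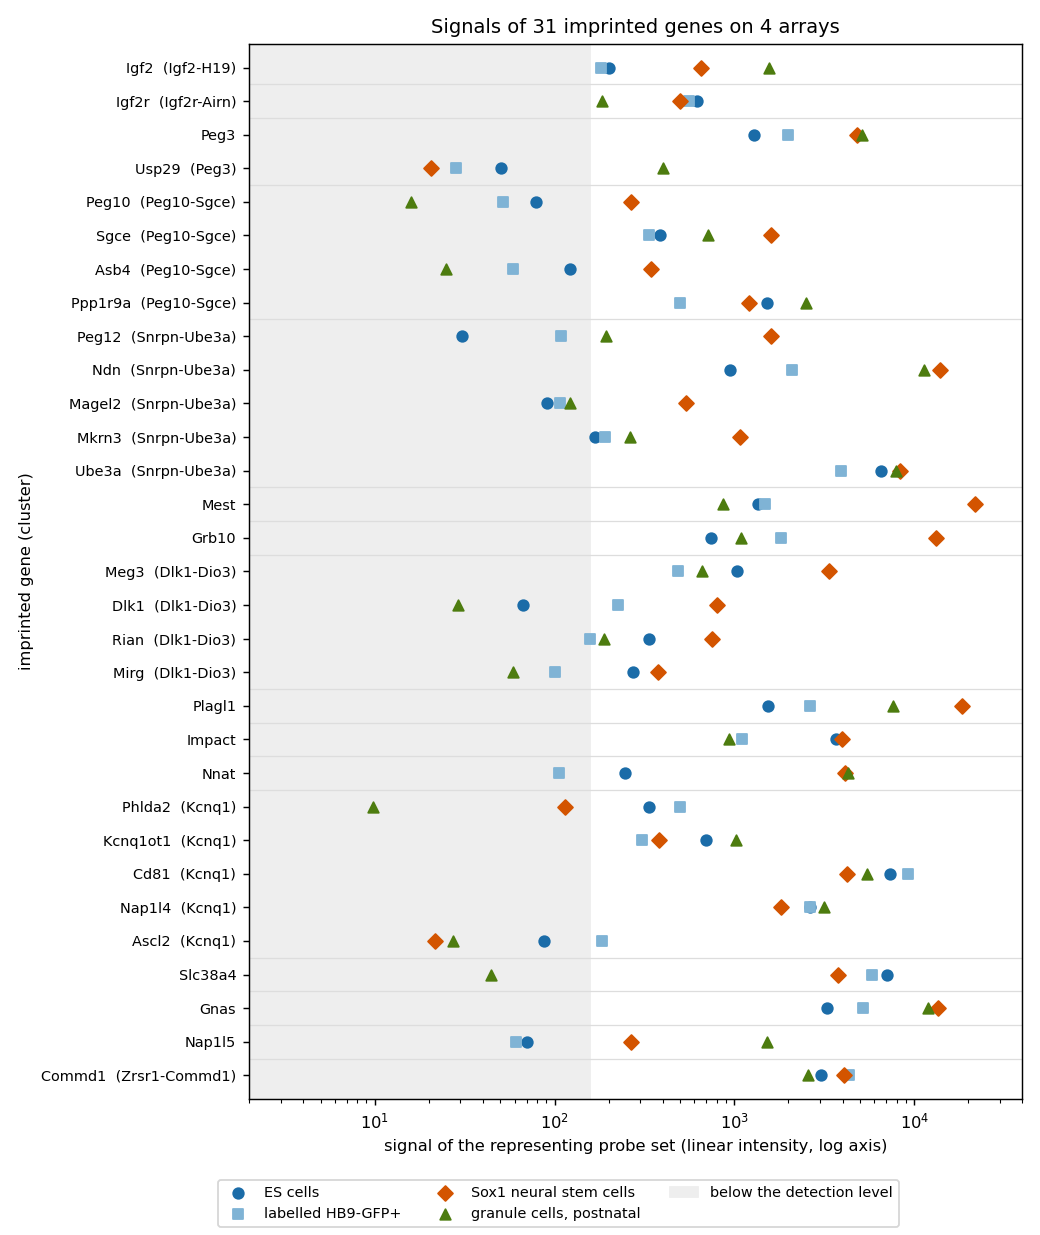
Signal of the representing probe set (log axis) for the 31 imprinted genes detected on at least 1 array, grouped by cluster, with 1 symbol per array and the range below the detection level of 157.5 shaded. Mest, Grb10 and Peg12 stand far to the right on the Sox1 array alone, Ndn and Nnat on the Sox1 and granule arrays, and Slc38a4 far to the left on the granule array; symbols of close values overlap.

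In the comparison of Sox1 neural stem cells with ES cells, 11 of 37 members were higher (29.7%, background 3.59%) and 0 were lower (background 3.02%). With each gene as the mean over its probe sets 6 were higher, without Grb10, Dlk1, Plagl1, Sgce and Gnas. Of all genes 4.1% were then called in either direction, in place of 6.6%. The median log2 difference of the 37 was 0.46, against 0.00 over all genes. Among genes detected on either array, 11 of 29 members were higher (37.9%, background 6.20%) and 0 lower (background 5.21%). In granule cells against ES cells, 7 of 37 were higher (18.9%, background 6.83%) and 2 lower (5.41%, background 4.99%), with a median of 0.26 against 0.00. Among genes detected on either array these were 7 of 26 (26.9%, background 11.3%) and 2 of 26 (7.69%, background 8.27%). The lower share lay near the background. With quantile normalization this split was 8 higher and 4 lower, and with each gene as the mean over its probe sets 3 and 2. All genes called in either direction were then 12.2% and 7.7%, in place of 11.8%.

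In granule cells against Sox1 cells, 2 members were higher (5.41%, background 3.66%) and 11 lower (29.7%, background 2.09%), with a median of -0.29 against 0.00. Among genes detected on either array these were 2 of 29 (6.90%, background 6.39%) and 11 of 29 (37.9%, background 3.65%). With each gene as the mean over its probe sets 1 was higher and 5 lower, when 3.5% of all genes were called in either direction, in place of 5.7%. The members' median was 0.00 with quantile normalization. Centring the arrays on reference genes moved the median of all genes, taken after the low level was applied, by 0.13 log2 units. Of all genes called 86.7% were then higher (1327 of 1531), in place of 63.6% (665 of 1045), so calls shifted broadly towards higher. Among members this centring gave 3 higher and 5 lower and a median of 0.00. The 5 were Peg12, Mest, Grb10, Dlk1 and Slc38a4. Between the HB9-GFP+-labelled array and the ES array no member passed, against a background of 1.11% higher and 0.813% lower, or 2.00% and 1.46% of genes detected on either array. At 2-fold, 4 were higher there (Grb10, Dlk1, Ndn and Ascl2; 10.8%, background 6.65%) and 7 lower (Meg3, Rian, Mirg, Impact, Nnat, Kcnq1ot1 and Ppp1r9a; 18.9%, background 7.03%). The comparisons share arrays and are not independent.

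**Figure D2:**
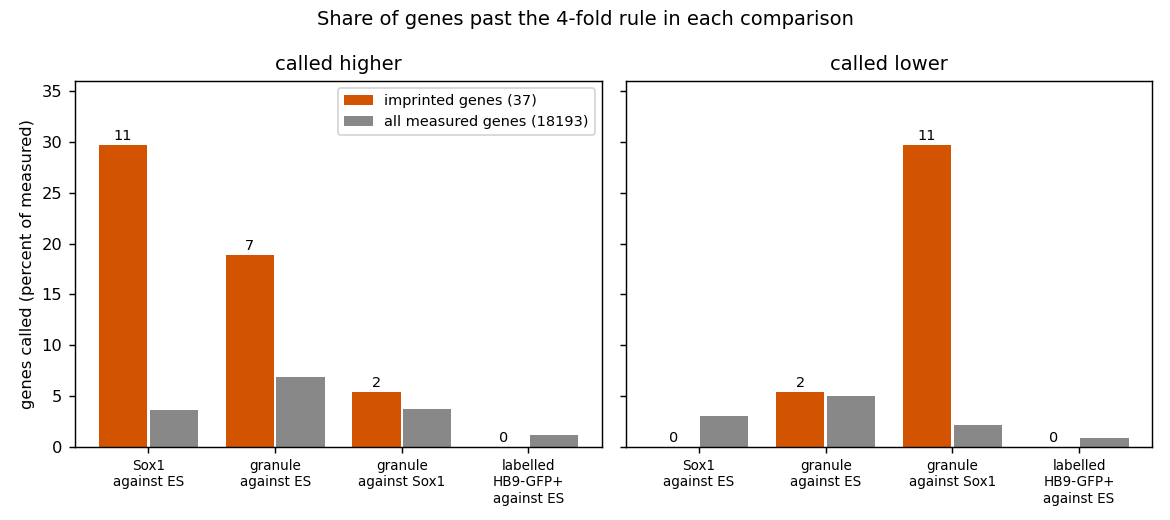
Percent of the 37 imprinted genes (orange, with their number above) and of all 18193 measured genes (grey) past the 4-fold rule in each comparison, higher on the left and lower on the right. The orange bars exceed the grey ones most for Sox1 against ES, higher, and for granule against Sox1, lower, at 29.7% each.

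Growth factor signalling was the first group examined. Igf2, a growth factor of the fetus, had signals of 200.0 (ES), 182.2 (labelled HB9-GFP+), 654.9 (Sox1) and 1562.2 (granule). It was thus 7.81-fold higher in granule than in ES cells and 3.27-fold higher in Sox1 cells, the latter short of the 4-fold rule. Its other probe set was undetected throughout, at 39.2 or less. Igf2 is also made by meninges and choroid plexus in the brain. The 5 markers of these tissues summed to 6072.7 (ES), 8636.4 (labelled HB9-GFP+), 2305.4 (Sox1) and 932.9 (granule), with 1, 2, 2 and 1 of them detected. Igfbp2 made up most of each sum except on the Sox1 array, where Ttr was at 1062.6. Fibroblasts also express Igf2, and their markers summed to 1754.2 (ES), 24855.4 (labelled HB9-GFP+), 1551.9 (Sox1) and 7952.8 (granule). The part of any of these cells and tissues in the Igf2 signals was not tested.

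Igf2r, the receptor that carries IGF2 to lysosomes, ran the other way and was dimmest on the granule array. Its signals were 623.5 (ES), 562.6 (labelled HB9-GFP+), 498.7 (Sox1) and 184.8 (granule), a 3.37-fold difference between ES and granule cells. Airn, the noncoding RNA that silences it on the paternal copy, was not detected, with signals of 61.6 to 145.7. Grb10, an adaptor that restrains insulin and IGF receptor signalling, was at 740.5 (ES), 1819 (labelled HB9-GFP+), 13151.4 (Sox1) and 1093.9 (granule). The Sox1 array alone was high, 17.8-fold over ES cells and 3.59 log2 units over granule cells. This rests on 1 of 3 probe sets, since the other 2 were undetected on all arrays.

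Mest, an alpha/beta hydrolase gene of mesoderm and early neural tissue, showed the widest gap between the Sox1 and granule arrays among members detected on both. Its signals were 1349.6 (ES), 1484.7 (labelled HB9-GFP+), 21649.3 (Sox1) and 863.1 (granule). The Sox1 array lay 16.0-fold above ES and 25.1-fold above granule cells, and the other 3 arrays lay within 2-fold of each other. A microRNA pair, miR-335, lies within the RefSeq span of Mest on chromosome 6, and is shown with its seeds (bases 2 to 8) in capitals because it shares this locus. The arrays used here did not measure mature microRNAs.
miR-335-5p: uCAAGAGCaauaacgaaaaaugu
miR-335-3p: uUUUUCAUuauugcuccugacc

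Plagl1, a zinc finger factor that activates other imprinted genes, was at 1533 (ES), 2620.4 (labelled HB9-GFP+), 18385.4 (Sox1) and 7614.8 (granule). Both neural arrays were higher, by 3.58 log2 units on the Sox1 and 4.97-fold on the granule array. The probe set carries the platform's suffix for probes that may bind other transcripts, and the other 2 probe sets were undetected. Cdkn1c, an imprinted inhibitor of cell cycle kinases that was not among the 40, was at 114.4, 131, 2184.2 and 401.4 in the same order of arrays.

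The Dlk1-Dio3 cluster on chromosome 12 holds Dlk1, a paternally expressed membrane protein related to Notch ligands, and the maternally expressed noncoding RNAs Meg3, Rian and Mirg. All 4 were brightest on the Sox1 array. Dlk1 was at 67 (ES), 226.1 (labelled HB9-GFP+), 802.7 (Sox1) and 29.1 (granule), which made the Sox1 array at least 10.2-fold higher than both the ES and granule arrays. This rests on 1 of 2 probe sets: the other was undetected, at 61.5 or less, and the mean of both gave 1.67 log2 units for Sox1 against ES, short of 4-fold. Meg3 was at 1038.6, 484.1, 3362.8 and 662.9 in that order of arrays. It was 3.24-fold higher in Sox1 than in ES cells and 5.07-fold higher than in granule cells.

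The detected probe sets of the noncoding RNAs shared their brightest array, though not the order of the others. Of 11 Meg3 probe sets 6 were detected on some array and all 6 were highest on the Sox1 array, as were 3 of 3 for Rian and 1 of 1 for Mirg. Their differences ranged from 0.52 to 2.08 log2 units for Meg3 between Sox1 and ES. Rian was at 333.3 (ES), 157 (labelled HB9-GFP+), 747.6 (Sox1) and 188.1 (granule). Mirg was at 274.1, 101, 377.1 and 59.1, at least 4.79-fold higher on the Sox1 than on the granule array.

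Dlk1 and the noncoding RNAs differed in direction between the HB9-GFP+-labelled array and the ES array. Dlk1 was at least 2.87-fold higher and Meg3 2.15-fold lower, while Rian and Mirg were undetected on the former. None of these passed 4-fold. Fibroblast markers summed to 24855.4 on the HB9-GFP+-labelled array and 1754.2 on the ES array, and their part in these differences was not tested. The RefSeq spans of Mirg, Rian and Meg3 held 19, 6 and 3 mature microRNAs.

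The Prader-Willi and Angelman cluster on chromosome 7 gave 4 of the 11 members higher in Sox1 than in ES cells. Its paternally expressed genes Ndn, Magel2, Mkrn3 and Peg12 are all without introns. Ndn encodes necdin, a MAGE family protein of postmitotic neurons. Its signals were 950.3 (ES), 2102.9 (labelled HB9-GFP+), 13855.4 (Sox1) and 11368.3 (granule). It was 14.6-fold higher in Sox1 cells and 3.58 log2 units higher in granule cells than in ES cells, and the neural arrays differed 1.22-fold from each other. All 5 detected probe sets gave 3.75 to 4.21 log2 units for Sox1 against ES.

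Its 3 neighbours were brightest on the Sox1 array and much dimmer on the granule array. Peg12, which encodes a GSK3 binding protein, was at 30.6 (ES), 109.3 (labelled HB9-GFP+), 1590.4 (Sox1) and 192.8 (granule), at least 20.2-fold higher in Sox1 than in ES cells and 8.25-fold higher than in granule cells. Magel2, a MAGE protein that regulates ubiquitin ligases, was at 91.3, 107.2, 539.6 and 121.9 and was detected on the Sox1 array alone. Mkrn3, a ubiquitin ligase gene tied to the timing of puberty, was at 168.9, 191.8, 1069.5 and 261.8, 6.33-fold higher in Sox1 than in ES cells and 4.09-fold higher than in granule cells. Each of these 3 genes was measured by 1 probe set.

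Ube3a, the ubiquitin ligase gene of Angelman syndrome, is expressed from the maternal copy in neurons and from both copies elsewhere. It passed the 4-fold rule in no comparison, at 6511.5 (ES), 3908.5 (labelled HB9-GFP+), 8316.1 (Sox1) and 7890.2 (granule), and 5 of its 6 probe sets were highest on the Sox1 array. The only Snrpn probe set of a single symbol was undetected, at 23.4 to 59.3. Some probe sets that name Snurf as well as Snrpn gave clear signals and are described near the end.

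In the Peg3 cluster, Peg3 and Usp29 start from opposite strands with 163 bases between their starts, yet had different patterns. Peg3, a large zinc finger protein, was at 1281.8 (ES), 1993.6 (labelled HB9-GFP+), 4819.8 (Sox1) and 5135.4 (granule). It was 4.01-fold higher in granule and 3.76-fold higher in Sox1 cells than in ES cells, values on either side of the 4-fold rule. Usp29, a ubiquitin protease, was at 50.6, 28.4, 20.6 and 403, detected on the granule array alone and at least 5.12-fold higher there than on the ES or Sox1 array. Its other probe set was undetected, at 103 on the Sox1 array. Zim1, a maternally expressed zinc finger gene, was undetected at 2.4 to 33.3. The stretch between the starts is shown 5′ to 3′ on the plus strand of GRCm38.p6, with its 5 CpG dinucleotides in capitals, because it is upstream sequence of both genes.
Peg3 and Usp29, chr7:6730420-6730582: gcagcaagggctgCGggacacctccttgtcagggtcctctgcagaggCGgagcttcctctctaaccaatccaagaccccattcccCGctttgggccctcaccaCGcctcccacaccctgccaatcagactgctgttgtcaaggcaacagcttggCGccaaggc

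The Peg10-Sgce cluster on chromosome 6 was also brightest in Sox1 cells for 3 of its 4 detected members. Sgce, which encodes epsilon-sarcoglycan, was at 387.9 (ES), 335.5 (labelled HB9-GFP+), 1608.2 (Sox1) and 709.1 (granule), 4.15-fold higher in Sox1 than in ES cells, with its other probe set undetected. Peg10, a gene derived from a retrotransposon and needed in placenta, was detected on the Sox1 array alone, at 265.4 against 16 to 78.9. Asb4, a SOCS box protein, was likewise detected there alone, at 343.8 against 24.9 to 122.7, although its other probe set gave 161.8 on the ES and 185.6 on the Sox1 array. Ppp1r9a, which encodes the actin-binding protein neurabin, was at 1512.5, 499.4, 1198.8 and 2498.6, highest on the granule array. Of its 4 detected probe sets, 2 were highest on the ES array instead. Calcr, the calcitonin receptor gene, was undetected at 18.7 to 92.8.

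Nnat and Nap1l5 were higher on neural arrays in different ways. Nnat, a small membrane protein of differentiating neurons, was at 247.6 (ES), 105.9 (labelled HB9-GFP+), 4140 (Sox1) and 4276.6 (granule), 16.7-fold and 17.3-fold over ES cells. Nap1l5, a nucleosome assembly protein relative enriched in brain, was at 70.1, 60.8, 264.8 and 1519.5, at least 19.3-fold higher in granule than in ES cells and 5.74-fold higher than in Sox1 cells. Gnas, which encodes the stimulatory G protein subunit and several overlapping transcripts, was at 3281.3, 5195.6, 13551.5 and 11872.3. It was 4.13-fold higher in Sox1 cells and 3.62-fold higher in granule cells, and its probe set does not separate the transcripts. Its other 4 probe sets were undetected.

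Slc38a4, a transporter of neutral amino acids, showed the largest difference of any member. Its signals were 7022.3 (ES), 5815.7 (labelled HB9-GFP+), 3786.7 (Sox1) and 44.4 (granule), at least 89.2-fold lower in granule than in ES cells and at least 48.1-fold lower than in Sox1 cells. Its other probe set gave log2 differences of -3.84 and -2.08 in these comparisons. Impact, which inhibits the stress kinase GCN2 and is abundant in neurons, was at 3663.9, 1105.1, 3976.5 and 931.4 in that order of arrays. It was 4.27-fold lower in granule than in Sox1 cells on that probe set, whereas the other detected one gave -0.48 log2 units. Commd1, a regulator of copper handling, stayed between 2559.9 and 4322 on all 4 arrays. Rasgrf1, a Ras activator of neurons, was undetected, at 145.2 or less.

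The Kcnq1 cluster on chromosome 7, rich in maternally expressed genes of the placenta, had none of its 6 measured members called higher on a neural array against ES. For so few genes this is near the backgrounds of 3.59% (Sox1) and 6.83% (granule). Cdkn1c, which lies in this cluster but is not among the 40, was higher in Sox1 cells, as given above. Phlda2, which restrains placental growth, was at 334.7 (ES), 497.9 (labelled HB9-GFP+), 115.1 (Sox1) and 9.8 (granule), at least 4.25-fold lower in granule than in ES cells. Ascl2, a trophoblast transcription factor, was detected on the HB9-GFP+-labelled array alone, at 183.8 against 86.9 on the ES array and 27.1 or less on the neural ones. Its second detected probe set gave 308.1 against 86.2. Of 7 markers of extraembryonic lineages, the ES array detected 3, the HB9-GFP+-labelled and Sox1 arrays 2 each, and the granule array 1.

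The other detected members of the Kcnq1 cluster passed the 4-fold rule in no comparison. Cd81, a tetraspanin, was at 7355.1, 9269.9, 4233.5 and 5463, and Nap1l4, a histone chaperone, at 2624.8, 2649.5, 1811.5 and 3132.5. Kcnq1ot1, the paternally expressed noncoding RNA that silences the cluster, was at 698.6 (ES), 308.5 (labelled HB9-GFP+), 381.9 (Sox1) and 1021.4 (granule). All 3 of its detected probe sets were highest on the granule array, and that array was 2.67-fold above the Sox1 array. Slc22a18, an organic ion transporter, was undetected at 13.8 to 45.2.

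**Figure D3:**
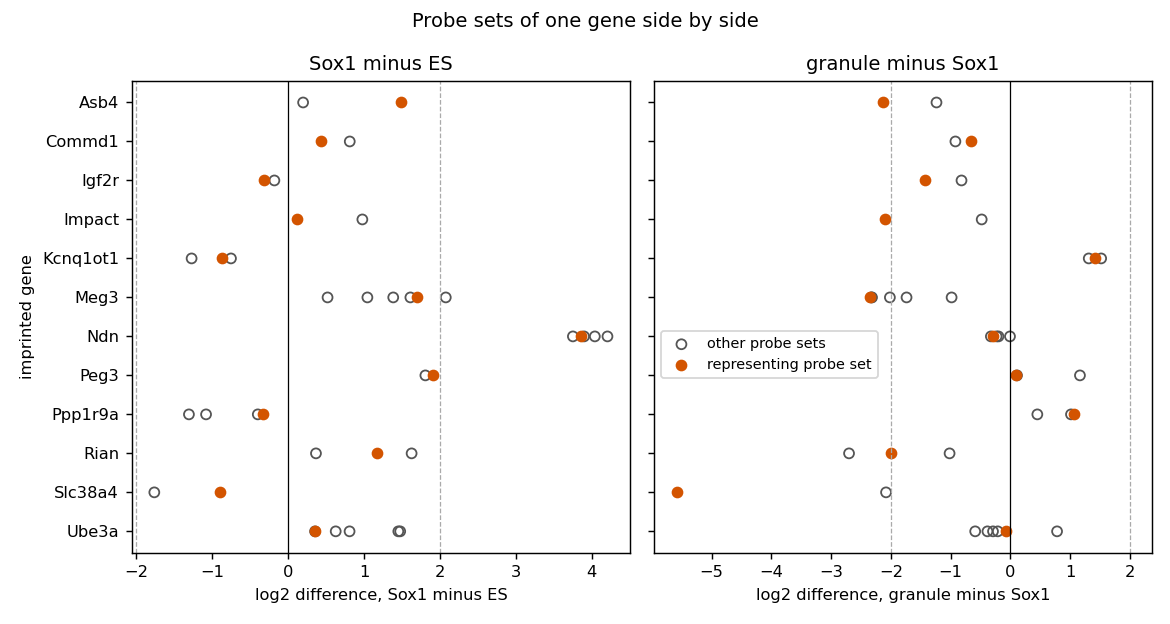
Log2 differences of each probe set detected on either array, for the imprinted genes with at least 2 such probe sets, Sox1 minus ES on the left and granule minus Sox1 on the right. Filled points are the representing probe sets and dashed lines mark 4-fold. The 5 Ndn probe sets lie between 3.75 and 4.21 on the left, while the Slc38a4 and Impact probe sets lie far apart on the right.

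Members were also sorted by the parental copy usually expressed. In Sox1 against ES cells 9 of 20 measured paternally expressed genes were called higher (45.0%, background 3.59%) and 0 of 15 maternally expressed ones, a count near that background, with median log2 differences of 1.83 and 0.00. The other 2 of the 11 were Grb10 and Gnas, whose active copy depends on the tissue. In granule against ES cells the counts were 7 of 20 (35.0%, background 6.83%) and 0 of 15, again near the background for the maternally expressed genes, with medians of 0.81 and -0.24, and 1 of each kind was lower (Slc38a4 and Phlda2). In granule against Sox1 cells 7 of 20 paternally expressed genes (35.0%) and 3 of 15 maternally expressed ones (20.0%) were lower, with a background of 2.09%. There 2 (10.0%) and 0 were higher (background 3.66%). Outside the 40, the further imprinted genes called higher in Sox1 than in ES cells, Cdkn1c, Ano1 and Pon2, are known as maternally expressed. Genes of one cluster share control regions, so these counts are not over independent genes, and the difference between the 2 kinds was not tested.

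**Figure D4:**
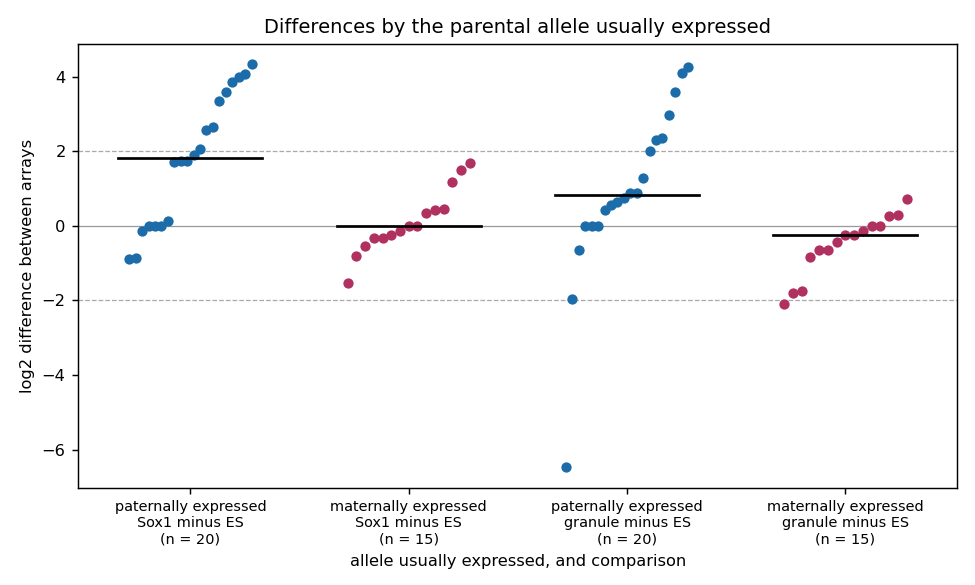
Log2 differences of the measured imprinted genes by the parental copy usually expressed, for Sox1 minus ES and granule minus ES, 1 point per gene in rising order, with the median as a black bar and dashed lines at 4-fold. No maternally expressed gene lies above 2, against 9 and 7 paternally expressed ones.

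Further imprinted genes, most of them imprinted in few tissues, were a second list. Of 40 measured, 3 were higher and 3 lower in Sox1 than in ES cells (7.5% each, backgrounds 3.59% and 3.02%). In granule cells against ES cells 2 were higher and 2 lower (5.00% each, backgrounds 6.83% and 4.99%), which is near the background. In granule against Sox1 cells they were again 2 and 2 (backgrounds 3.66% and 2.09%), and between the HB9-GFP+-labelled array and the ES array 0 and 2 (backgrounds 1.11% and 0.813%). Cdkn1c, the calcium-activated chloride channel gene Ano1 (732.8 on the Sox1 array and 53.3 or less elsewhere) and the lactonase gene Pon2 were higher in Sox1 cells. Cobl, an actin nucleator next to Grb10, was at 2682 (ES), 1720.1 (labelled HB9-GFP+), 141.5 (Sox1) and 39.4 (granule). Ddc, the decarboxylase on the other side of Grb10, was at 3376.3, 1798.7, 851 and 437.3.

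The remaining calls of that list were single genes. Ampd3, an AMP deaminase, was at 1431.8 (ES) and 62.9 (Sox1), at least 18.2-fold lower in Sox1 cells. Gatm, an enzyme of creatine synthesis, was at 406.5 on the granule and 50.6 on the ES array, and the phosphatase gene Inpp5f was 5.04-fold lower on the HB9-GFP+-labelled array than on the ES array. Xist, which is imprinted in extraembryonic tissue, a tissue not sampled here, was at 873.3, 159.1, 178.2 and 7315.4 in the order ES, labelled HB9-GFP+, Sox1 and granule. It was called in every comparison and is counted in this list. The sex of the cells and animals is not given, and its part in the Xist signals was not tested.

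Factors that set, keep or remove DNA methylation and related chromatin marks were, where called against ES cells, lower on the neural arrays. Of 28 measured, 0 were higher and 4 lower in Sox1 cells (14.3%, background 3.02%), and 0 were higher and 6 lower in granule cells (21.4%, background 4.99%). The 4 were Zfp57, Dnmt3l and the demethylase genes Tet1 and Tet2, which act in the removal of methylation. In granule against Sox1 cells 0 were higher (background 3.66%) and 2 lower (7.14%, background 2.09%). On the HB9-GFP+-labelled against the ES array 1 was higher (Dppa3) and 1 lower (Tet2), 3.57% each, with backgrounds of 1.11% and 0.813%. Zfp57 was at 874.7 (ES), 1531.3 (labelled HB9-GFP+), 125.5 (Sox1) and 179.5 (granule), and was undetected on the Sox1 array. Dnmt3l, the cofactor of methylation in germ cells, was at 5822.8, 5412, 106.8 and 17.5. In granule cells the methyltransferase gene Dnmt3a, at 65.4, was at least 27.2-fold lower than in ES cells, and Dnmt3b, at 363.4, was 17.5-fold lower.

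Dnmt1 and Trim28, central to keeping imprints, passed the 4-fold rule in no comparison. Dnmt1, which copies methylation at replication, was at 6639.6 (ES), 6440.8 (labelled HB9-GFP+), 6697.9 (Sox1) and 3464.9 (granule), and Trim28, the corepressor that ZFP57 recruits, at 17654.5, 17740.8, 15532.6 and 8681.7. Tet1 was 5.37-fold and Tet2 8.87-fold lower in Sox1 than in ES cells. Dppa3, which protects imprints in the zygote, was at 1153.5 on the HB9-GFP+-labelled array and 231 on the ES array. Eed, a Polycomb subunit, and Hells, a chromatin remodeller, were 6.18-fold and 5.03-fold lower in granule than in ES cells.

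Genes that flank the imprinted clusters were called at about the rate of all genes. Dhcr7 and Phactr2 were on this list and on that of further imprinted genes, and passed the 4-fold rule in no comparison. Of 62 measured neighbours, 2 were higher and 2 lower in Sox1 than in ES cells (3.23% each, backgrounds 3.59% and 3.02%). In granule cells against ES cells 3 were higher (4.84%, background 6.83%) and 2 lower (3.23%, background 4.99%), and against Sox1 cells 2 and 0 (backgrounds 3.66% and 2.09%). Casd1, a sialic acid acetyltransferase gene beside Sgce, was at 1142.4 (ES), 515.7 (labelled HB9-GFP+), 5306 (Sox1) and 4588.7 (granule), 4.64-fold higher in Sox1 than in ES cells. Clcn4, a chloride transporter gene, was at 119.2, 137.4, 666.7 and 3494.8. B3gnt2, a glycosyltransferase gene near Commd1, was 9.86-fold lower in Sox1 than in ES cells and Pdk4, a mitochondrial kinase gene, at least 9.29-fold lower, while Stx16, a syntaxin gene near Gnas, was 4.35-fold higher in granule than in ES cells.

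Over the 37 members the log2 signals of the ES array and the HB9-GFP+-labelled array correlated with a Pearson r of 0.94, and the other pairs of arrays with 0.67 to 0.80. Over all 18193 genes the same pairs gave 0.95 and 0.79 to 0.90. The points share the arrays' scaling and a common low level, and genes are not independent replicates.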

How the data were processed

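Each of the 4 cell samples was hybridised to 1 Affymetrix array of 45101 probe sets. The deposited values are linear intensities. GCRMA is named, with no version, per the submitters' processing notes. The authors' values instead look like linear signals scaled per array, since all arrays have 1 common 2% trimmed mean, so how they were made is uncertain. No detection flags were used. The number of arrays limits the precision, and scaling to one mean hides differences in total RNA.

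Gene names came from the platform annotation, in which 34958 probe sets had 1 symbol, 932 several and 9211 none. Control probe sets (64) were left out. Values were put on the log2 scale without a pseudocount, and the low level, detection and 4-fold rules were applied with pandas 2.3.3 and numpy 2.4.6. The call rule was checked on simulated arrays. No p-value was computed. The rule for naming takes every member, and called genes of the lists of further imprinted genes, imprint factors and flanking genes. Dnmt1 and Trim28 fall outside it and were chosen after their values were seen. Alternatives were quantile normalization, reference centring, a pseudocount of 32 in place of the low level, the mean over probe sets, a 2-fold rule and a stricter detection level. The members, lists and settings were chosen with earlier results of these data known. Parental copies are textbook assignments. Markers of vessels and blood were detected 1, 2, 0 and 1 times of 5 on the ES, HB9-GFP+, Sox1 and granule arrays.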

Additional observations from a re-analysis of the deposited data

Results flagged for a closer look

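Probe sets that name more than 1 gene entered no comparison, and some gave clear signals. The probe set annotated to H19 and Mir675, a microRNA gene within H19, had its highest signal of 1265.7 on the Sox1 array, with 1231.8 (ES), 316.7 (labelled HB9-GFP+) and 147.2 (granule). Of the probe sets annotated to both Snurf and Snrpn, the brightest reached 2253.7 on the granule array, with 1317 (ES), 2214.1 (labelled HB9-GFP+) and 1915.6 (Sox1). Another of them was at 1 (ES), 353.9 (labelled HB9-GFP+), 1.4 (Sox1) and 823.1 (granule). The H19 and Mir675 probe set differed by -3.06 log2 units between granule and ES cells. The annotation names more than 1 gene for each of these probe sets, so by the rule used here they were not counted as readings of H19 or Snrpn.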

How the results depend on the processing

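No paired analysis was possible because each kind of cell had 1 array. With each gene as the mean over its probe sets the members called fell to 5 in granule against ES cells, 6 in Sox1 against ES cells and 6 in granule against Sox1 cells, in place of 9, 11 and 13. The share of all genes called fell too, to 7.7%, 4.1% and 3.5%, in place of 11.8%, 6.6% and 5.7%. With a 2-fold rule they were 14, 19 and 21 of 37, against 30.5%, 22.2% and 18.9% of all genes. It gave 11 for the HB9-GFP+-labelled array against ES in place of 0, against 13.7% of all genes, and 21 in place of 8 were set apart on 1 array. Centring on reference genes left 8 of granule against Sox1, 7 of them shared with the 13, while 8.4% of all genes were called and 86.7% of those were higher. Quantile normalization, the pseudocount and the stricter detection level kept these counts within 1.5 times. The pseudocount moved the median of all genes by -0.11 log2 units in granule against ES cells. Leaving out the HB9-GFP+-labelled array, an alternative chosen after seeing the data, gave 12 set apart. For neither this count nor the 21 was the share of all genes computed. Of 124 log2 differences of detected members, 123 moved by less than the pooled probe set SD under quantile normalization, 101 under centring, 112 with the pseudocount and 84 with the mean over probe sets, and no called one changed sign. Without replicate arrays no difference has a biological error.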
